A study of Mus musculus with 6 samples.

Results

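The mitochondrially encoded mRNAs of respiratory complexes III, IV and V and the 2 mitochondrial ribosomal RNAs (rRNAs) were followed in cardiomyocyte areas with high or low Atf3 protein. They are the 8 of 17145 gene rows that lie on the mitochondrial chromosome and carry the symbols *mt-Cytb*, *mt-Co1*, *mt-Co2*, *mt-Co3*, *mt-Atp6*, *mt-Atp8*, *mt-Rnr1* or *mt-Rnr2*. The rule used names and position and no measured value. The hearts came from FS6KD mice, whose *Ndufs6* gene, for a subunit of complex I, carries a gene trap that lowers its expression mainly in the heart. The background of the strain was mixed C57BL/6J and 129/Ola, the labels give the tissue as heart, the cells as cardiomyocytes and the animals as female, and they give no age. Fresh-frozen sections were stained for Atf3, and by photo-isolation chemistry, in which ultraviolet light uncages the primers of cDNA already made in the section, RNA was read only from the irradiated areas. Each group, Atf3 high and Atf3 low, has 3 libraries, all from FS6KD tissue and with no wild-type library, so that both share the gene trap. The labels do not tie an area to an animal, so the p-values below measure only the spread between these samples.

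Mitochondrial DNA is transcribed as long precursors from both strands, and enzymes that cut at the tRNAs release the mRNAs and rRNAs between them. The 12S rRNA (*mt-Rnr1*) and the 16S rRNA (*mt-Rnr2*) form the core of the mitochondrial ribosome, which translates the mRNAs of the same DNA. These mRNAs encode core subunits of the respiratory chain and ATP synthase that are assembled with subunits imported from the cytosol, and the heart, which depends on oxidative phosphorylation, is rich in them.

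The libraries counted unique molecular identifiers (UMIs), random tags that let each cDNA molecule be counted once. Total UMIs were 184872, 81117 and 210588 in Atf3 high replicates 1, 2 and 3 and 171536, 125522 and 81917 in Atf3 low replicates 1, 2 and 3. Levels are given as CPM, UMIs per 1000000 of a library size scaled by the TMM method, and 1 UMI was worth between 4.66 CPM in the deepest library and 13.6 CPM in Atf3 low replicate 3. *Atf3* itself had 50, 7 and 25 UMIs in the Atf3 high and 35, 0 and 8 in the Atf3 low libraries, or 254, 84.5 and 116 CPM against 236, 0 and 109 CPM. These groups overlapped, with Atf3 low replicate 1 above Atf3 high replicates 2 and 3; the areas were chosen by its protein. *Ndufs6* had 2, 0 and 3 UMIs in Atf3 high and none in Atf3 low, and without wild-type tissue this does not check the genotype. One library went against the sex on its label. Atf3 high replicate 2 held 8 UMIs of *Ddx3y* and 8 of *Eif2s3y*, which are Y-linked, and lacked *Xist*, whereas the other libraries held between 3 and 26 UMIs of *Xist* and at most 1 UMI of any of 4 Y-linked genes. The main results are therefore given with and without the library labelled Atf3 high replicate 2.

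Atf3 high and Atf3 low were compared by edgeR's quasi-likelihood test over 7665 genes with at least 10 UMIs in total, with p-values adjusted over these genes by the Benjamini-Hochberg method. A log2 fold change below 0 means a lower level in Atf3 high. Of the 8 genes, 7 were tested, and *mt-Atp8*, with 3 UMIs in all, was not. Each of the 7 had an estimate below 0, as did 3432 of the 7665 genes, and 0 passed an adjusted p of 0.05, a threshold that 0.0913% of all genes passed in either direction. DESeq2 and limma-trend also called 0 of the 7. At an unadjusted p under 0.05, *mt-Co2*, *mt-Cytb* and *mt-Atp6* were lower in edgeR, that is 3 of 7, against 2.24% of all genes lower at that threshold. That count rested on the scaling and on single libraries: it was 0 with library size alone, 1 without Atf3 high replicate 1 or without Atf3 low replicate 3, and 5 without Atf3 low replicate 2. In 4 of the 7 (*mt-Cytb*, *mt-Co1*, *mt-Co2* and *mt-Co3*) all Atf3 high libraries were below all Atf3 low libraries, which held for 3.89% of all genes tested. As shares of all UMIs, with no scaling, this held for 2 of the 7 (*mt-Cytb* and *mt-Co2*) and for 2.45% of all genes tested. The median log2 fold change was −0.62 over the 5 mRNAs tested and 0.11 over all genes. Scaling by library size alone raised the median of all genes to 0.31 and that of the 5 mRNAs to −0.41. The difference between them was −0.73 with TMM and −0.72 with library size. A change of scaling moves all genes by about the same amount, so this difference could not test the scaling. The estimates with library size alone were −0.51 for *mt-Co2*, −0.45 for *mt-Atp6*, −0.41 for *mt-Cytb*, −0.29 for *mt-Co1* and −0.25 for *mt-Co3*.

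*mt-Cytb*, the cytochrome b of complex III, is the only subunit of that complex encoded in mitochondrial DNA. Its level was 20858, 27263 and 22372 CPM in Atf3 high replicates 1, 2 and 3 and 33996, 31368 and 42969 CPM in Atf3 low replicates 1, 2 and 3. The groups did not overlap, and the Atf3 high library nearest to the Atf3 low libraries was replicate 2. The means were 23498 ± 3348 CPM in Atf3 high against 36111 ± 6083 CPM in Atf3 low (SD, n = 3 each), and the log2 fold change was −0.62 (standard error 0.27, edgeR unadjusted p = 0.0249, adjusted p = 0.789). Without Atf3 high replicate 2 it was −0.75 (edgeR unadjusted p = 0.0128, adjusted p = 0.929).

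*mt-Co1*, *mt-Co2* and *mt-Co3* encode the catalytic core of cytochrome c oxidase, complex IV. *mt-Co2*, which carries the copper site that takes electrons from cytochrome c, stood at 8638, 7181 and 9125 CPM in Atf3 high against 15398, 12864 and 12775 CPM in Atf3 low (replicates 1, 2 and 3). The Atf3 high values lay close together and all below the lowest Atf3 low value. Its log2 fold change was −0.72 (standard error 0.28, edgeR unadjusted p = 0.0153, adjusted p = 0.696), and −0.63 without Atf3 high replicate 2 (edgeR unadjusted p = 0.0449). *mt-Co1*, the subunit with the oxygen-reducing site, stood at 10279, 9498 and 9293 CPM in Atf3 high against 16988, 12188 and 12203 CPM in Atf3 low. In CPM no Atf3 high library reached an Atf3 low library, but as a share of all UMIs Atf3 high replicate 1 did reach Atf3 low replicate 3 (1.09% in both), and Atf3 low replicate 1 was apart from the others of its group. The log2 fold change was −0.51 (standard error 0.28, edgeR unadjusted p = 0.0796, adjusted p = 0.942) and −0.51 also without Atf3 high replicate 2. *mt-Co3*, the third subunit of the core, stood at 11133, 13445 and 12283 CPM in Atf3 high against 17500, 14032 and 19244 CPM in Atf3 low. The groups did not overlap in CPM, but Atf3 high replicate 2 and Atf3 low replicate 2 were next to each other, and as shares of all UMIs they changed places (1.37% and 1.34%). Its log2 fold change was −0.46 (standard error 0.28, edgeR unadjusted p = 0.104, adjusted p = 0.964), and −0.54 without Atf3 high replicate 2.

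*mt-Atp6* and *mt-Atp8* encode membrane subunits of ATP synthase, complex V, of which the first forms the proton channel with the ring of c subunits. *mt-Atp6* stood at 3979, 4115 and 5757 CPM in Atf3 high against 10256, 5005 and 6864 CPM in Atf3 low (replicates 1, 2 and 3). The groups overlapped, since Atf3 high replicate 3 lay above Atf3 low replicate 2, and Atf3 low replicate 1 was the highest library. For this gene edgeR gave a log2 fold change of −0.68 (standard error 0.31, unadjusted p = 0.0366, adjusted p = 0.823) and −0.61 without Atf3 high replicate 2 (edgeR unadjusted p = 0.0845). Without Atf3 low replicate 1 the estimate was −0.41 (edgeR unadjusted p = 0.242). *mt-Atp8* had 1 UMI each in Atf3 high replicate 3 and Atf3 low replicates 1 and 2, and 0 in the other 3 libraries. A count of 0 allowed up to 3 UMIs, or 15.2, 36.2 and 40.9 CPM in Atf3 high replicates 1 and 2 and Atf3 low replicate 3 (counting error only). A difference between the groups was not detectable in these counts.

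The open reading frames of *mt-Atp8* (ENSMUSG00000064356, chrM:7766-7969) and *mt-Atp6* (ENSMUSG00000064357, chrM:7927-8607) overlap and are carried on a single mRNA, and the 2 genes are counted as separate rows. The 43 bases they share (chrM:7927-7969, GRCm38, + strand) are shown because a read that falls wholly in them fits both genes. The capitals mark the start codon of *mt-Atp6* and the stop codon of *mt-Atp8*.
mt-Atp8 and mt-Atp6 overlap: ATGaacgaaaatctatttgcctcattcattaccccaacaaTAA
The counting settings for reads that overlap 2 genes are not given in the sources used here, and 4986 UMIs were counted for *mt-Atp6* against 3 for *mt-Atp8*. The start of *mt-Co3* (ENSMUSG00000064358, chrM:8607-9390) also coincides with the last base of *mt-Atp6*.

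**Figure D1:**
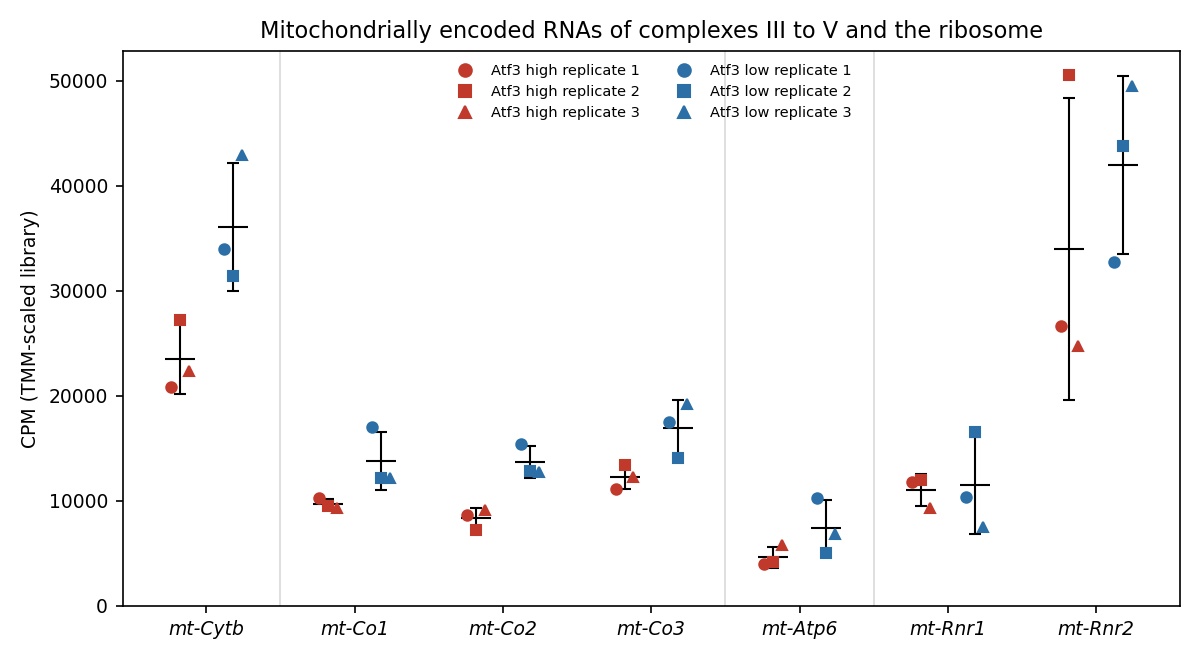
CPM of the 7 tested genes in each library (y axis, linear from 0), with Atf3 high in red and Atf3 low in blue, the replicate number given by the symbol, and the bars giving the group mean and SD of 3 libraries. On this scale *mt-Cytb*, *mt-Co1*, *mt-Co2* and *mt-Co3* show no overlap between the groups (as shares of all UMIs, *mt-Co1* and *mt-Co3* do), *mt-Atp6* and both rRNAs do, and Atf3 high replicate 2 is the highest library for *mt-Rnr2*.

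The 16S rRNA *mt-Rnr2* stood at 26631, 50532 and 24752 CPM in Atf3 high against 32736, 43773 and 49492 CPM in Atf3 low (replicates 1, 2 and 3). Atf3 high replicate 2 was the highest of the 6 libraries, while Atf3 high replicates 1 and 3 were the lowest. The log2 fold change was −0.31 (standard error 0.28, edgeR unadjusted p = 0.281, adjusted p = 0.996). The estimate depended on single libraries and on the scaling. Without Atf3 high replicate 2 it was −0.72 (edgeR unadjusted p = 0.0163, adjusted p = 0.938) and the groups did not overlap in CPM, though they did as shares of all UMIs (2.83% in Atf3 high replicate 1 and in Atf3 low replicate 1), and it was −0.52 without Atf3 low replicate 1, −0.19 without Atf3 low replicate 3, −0.15 without Atf3 high replicate 1, −0.13 without Atf3 high replicate 3 and −0.11 with library size alone. The 12S rRNA *mt-Rnr1* stood at 11804, 11960 and 9302 CPM in Atf3 high against 10364, 16535 and 7491 CPM in Atf3 low. The Atf3 low libraries held both the highest and the lowest value, and the groups overlapped with and without Atf3 high replicate 2. Its log2 fold change was −0.057 (standard error 0.30, edgeR adjusted p = 0.996), with a sign that turned to 0.13 on scaling by library size alone, and −0.13 without Atf3 high replicate 2. It ran from −0.30 (Atf3 low replicate 3 left out) to 0.25 (Atf3 low replicate 2 left out), and was −0.17 without Atf3 low replicate 1, −0.11 without Atf3 high replicate 1 and 0.044 without Atf3 high replicate 3. The number of *mt-Rnr2* UMIs per *mt-Rnr1* UMI ran from 2.26 to 4.23 in the Atf3 high libraries and from 2.65 to 6.61 in the Atf3 low libraries, with the largest value in Atf3 low replicate 3, the library with the fewest *mt-Rnr1* UMIs (550).

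Summed over the 6 mRNAs, the level was 54887, 61502 and 58835 CPM in Atf3 high against 94145, 75466 and 94055 CPM in Atf3 low (replicates 1, 2 and 3). The Atf3 high libraries lay within a narrow band below all Atf3 low libraries, with means of 58408 ± 3328 and 87888 ± 10758 CPM (SD, n = 3 each). The summed rRNA level was 38434, 62492 and 34054 CPM in Atf3 high against 43100, 60307 and 56983 CPM in Atf3 low, and the groups overlapped through Atf3 high replicate 2 alone, whereas as shares of all UMIs Atf3 high replicate 1 (4.09%) also lay above Atf3 low replicate 1 (3.73%). On the log2 scale the difference between group means was −0.58 for the mRNAs and −0.29 for the rRNAs, where the SD between libraries of a group, pooled over both groups, was 0.14 and 0.38. Values on the scale of the cardiomyocyte markers, which lay above 0, are given with those markers. Leaving out Atf3 high replicate 2 gave −0.63 and −0.56, and library size alone −0.38 and −0.078. The rRNA value was −0.12 when Atf3 high replicate 3 was left out and −0.48 when Atf3 low replicate 1 was. As a share of all UMIs, with no scaling, the 6 mRNAs took from 5.84% to 6.28% in the Atf3 high libraries and from 7.21% to 8.43% in the Atf3 low libraries, again without overlap. With their nuclear copies, described below, the shares did overlap, since Atf3 high replicate 2 (18.6%) lay above Atf3 low replicate 2 (17.5%). In CPM the sums with copies did not overlap, but these libraries were next to each other (181658 and 183325 CPM). These areas are bulk samples, in which fewer cardiomyocytes and less of an RNA per cardiomyocyte cannot be told apart.

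The ratio of mRNA to rRNA UMIs compares both kinds of transcript within a library, so that no scaling enters it. There were 1.43, 0.984 and 1.73 mRNA UMIs per rRNA UMI in Atf3 high replicates 1, 2 and 3. The Atf3 low replicates 1, 2 and 3 had 2.18, 1.25 and 1.65. The groups overlapped: Atf3 low replicate 1 was the highest and Atf3 high replicate 2 the lowest, and the other 4 libraries were mixed. The exact (Clopper-Pearson) 95% interval of the ratio ran from 0.947 to 1.02 in Atf3 high replicate 2 and from 1.68 to 1.78 in Atf3 high replicate 3, so libraries of 1 group differed by more than counting error. The mean log2 ratio was 0.43 ± 0.41 in Atf3 high against 0.72 ± 0.40 in Atf3 low (SD, n = 3 each), a difference of −0.30, smaller than the SD within either group. Without Atf3 high replicate 2 the difference was −0.073, and without Atf3 low replicate 1 it was −0.097; it was −0.48 when Atf3 high replicate 3 was left out and −0.50 when Atf3 low replicate 2 was. With *mt-Rnr2* alone as denominator it was −0.22, and with *mt-Rnr1* alone −0.59. With all 13 mRNAs of the mitochondrial chromosome in the table in place of the 6, it was −0.24.

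**Figure D2:**
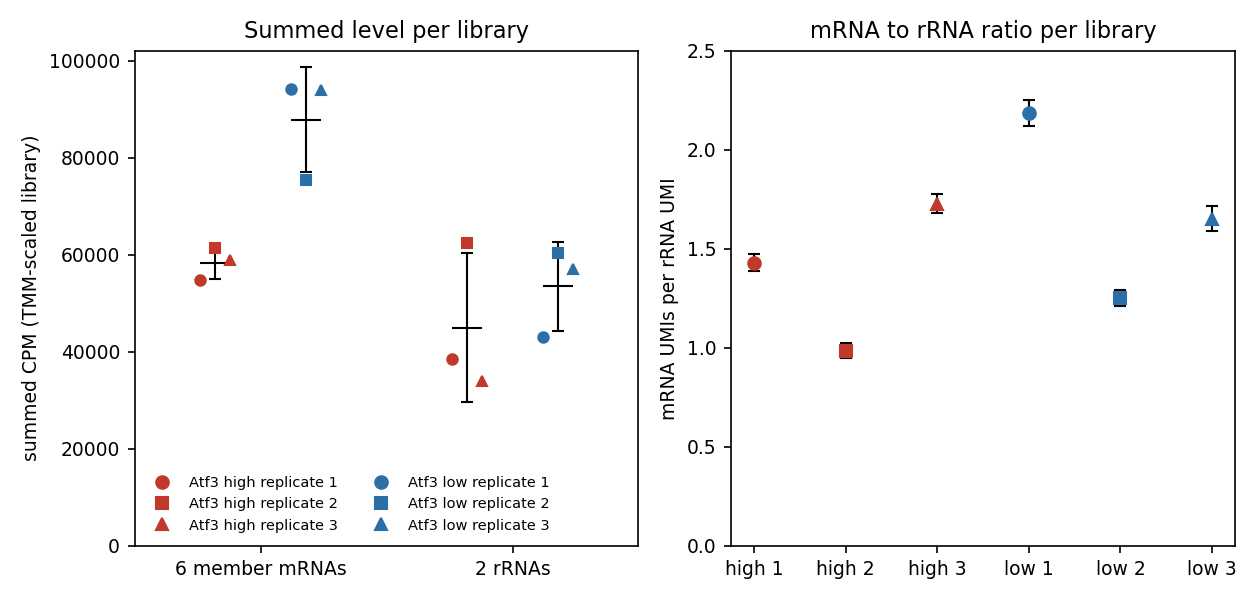
Left, summed CPM of the 6 mRNAs and of the 2 rRNAs in each library, with group mean and SD of 3 libraries; right, mRNA UMIs per rRNA UMI in each library with exact 95% intervals, which cover counting error only (both y axes linear from 0). The summed mRNA level does not overlap between the groups, whereas the ratio runs from 0.984 to 1.73 in the Atf3 high libraries and from 1.25 to 2.18 in the others.

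*mt-Cytb* took from 36.1% to 45.7% of the UMIs of the 6 mRNAs in a library, *mt-Co3* from 18.6% to 21.9%, *mt-Co1* from 13.0% to 18.7%, *mt-Co2* from 11.7% to 17.0% and *mt-Atp6* from 6.63% to 10.9%, with the groups overlapping for each of these 5. CPM were also divided by the length of the gene, with nuclear copies left out. In Atf3 low these values ran from *mt-Cytb* (31565 ± 5317 CPM per kb, SD, n = 3) through *mt-Rnr2* (26549 ± 5384), *mt-Co3* (21588 ± 3384) and *mt-Co2* (19998 ± 2177). Next came *mt-Rnr1* (12003 ± 4839), *mt-Atp6* (10830 ± 3910) and *mt-Co1* (8928 ± 1791 CPM per kb). Of neighbours in that order, only *mt-Co2* and *mt-Rnr1* had ranges over the libraries that did not overlap. In Atf3 high, *mt-Cytb* (20540 ± 2926 CPM per kb) and *mt-Rnr2* (21474 ± 9085) had no fixed order: *mt-Rnr2* was lower in replicates 1 and 3 (16834 and 15646 against 18233 and 19556 CPM per kb) and higher only in replicate 2 (31942 against 23832). *mt-Co3* (15672 ± 1474 CPM per kb), *mt-Co2* (12156 ± 1479), *mt-Rnr1* (11541 ± 1562), *mt-Atp6* (6780 ± 1453) and *mt-Co1* (6272 ± 337) followed in the same order as in Atf3 low. There, *mt-Co2* and *mt-Rnr1* overlapped, as did *mt-Atp6* and *mt-Co1*, and the other neighbours from *mt-Cytb* on did not. These libraries prime cDNA at the 3′ end, so UMIs need not grow with the length of a gene. The order per kb is thus not a ranking of abundance. In CPM without the division, *mt-Co1* (13793 in Atf3 low) lay above *mt-Rnr1* (11463) and *mt-Atp6* (7375) and next to *mt-Co2* (13679). The order also depends on the nuclear copies, described below. With them, the Atf3 low means of *mt-Co1* (77020 CPM), *mt-Co2* (42189) and *mt-Co3* (40609) lay above that of *mt-Cytb* (36128). In Atf3 high, the means of *mt-Co1* (58090 CPM) and *mt-Co3* (31936) lay above that of *mt-Cytb* (23505), and that of *mt-Co2* (21580) lay below it. *mt-Atp8* had the lowest count per kb in both groups, with 7.61 ± 13.2 CPM per kb in Atf3 high against 24.6 ± 21.7 in Atf3 low. It shares its mRNA with *mt-Atp6*, which holds the 3′ end where cDNA is primed, so this count does not measure its level.

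The genes lie on the same strand, with the rRNAs first: *mt-Rnr1* (ENSMUSG00000064337) at chrM:70-1024, *mt-Rnr2* (ENSMUSG00000064339) at chrM:1094-2675, *mt-Co1* (ENSMUSG00000064351) at chrM:5328-6872, *mt-Co2* (ENSMUSG00000064354) at chrM:7013-7696 and *mt-Cytb* (ENSMUSG00000064370) at chrM:14145-15288 (GRCm38, + strand, GENCODE annotation). The 6 mRNA genes lie downstream of both rRNA genes. No trend along the chromosome was tested. The table held 24 rows of this chromosome with 168073 UMIs, of which the 8 genes held 58452 as mRNA and 37862 as rRNA. Of the other rows, the 7 mRNAs of complex I held 71551, led by *mt-Nd4* (23336), and 9 tRNAs held 208, led by *mt-Tn* (64). Of the complex I mRNAs, 7 of 7 had estimates below 0, with a median log2 fold change of −0.44, and 2 were lower at an unadjusted p under 0.05 in edgeR, against 2.24% of all genes. The median was −0.23 with library size alone. Without Atf3 high replicate 2 it was −0.67 and the count 3. That count was 1 with library size alone and when any library except replicate 2 of either group was left out.

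**Figure D3:**
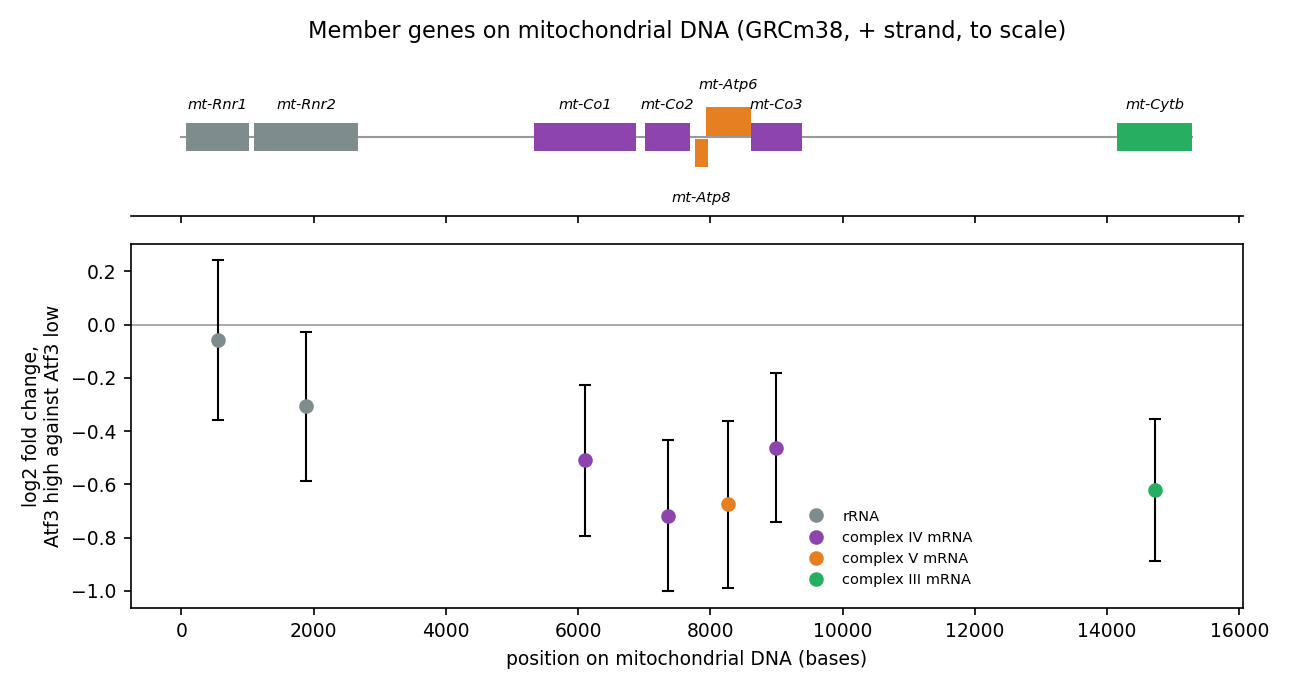
Top, positions of the 8 genes on mitochondrial DNA from base 1 to the end of *mt-Cytb* (GRCm38, to scale), with *mt-Atp6* and *mt-Atp8* drawn at different heights because they overlap; bottom, edgeR log2 fold change of Atf3 high against Atf3 low with its standard error at the middle of each tested gene. The estimates run from −0.72 (*mt-Co2*) to −0.057 (*mt-Rnr1*), and *mt-Atp8* was not tested.

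The mature mRNAs differ at their 3′ ends, where the poly(A) tail begins and where these libraries prime cDNA synthesis. The reading frames of *mt-Cytb* and *mt-Co3* end in a single T that becomes a stop codon only when adenines are added, and the other 4 end in a full stop codon. The last 30 bases are shown for *mt-Cytb*, *mt-Co3* and *mt-Co2* (chrM:15259-15288, chrM:9361-9390 and chrM:7667-7696, GRCm38, + strand), with the stop codon or the part of it that is encoded in capitals.
mt-Cytb: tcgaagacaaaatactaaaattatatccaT
mt-Co3: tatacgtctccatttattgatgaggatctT
mt-Co2: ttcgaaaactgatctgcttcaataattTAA
Both kinds of end were found among the lower estimates (*mt-Cytb* at −0.62 and *mt-Co2* at −0.72).

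Nuclear DNA holds near-identical copies of parts of mitochondrial DNA, and the counting could split reads between a gene and its copies, so the levels of the genes that have copies are uncertain. A copy was a gene outside the mitochondrial chromosome that matched at 90% identity or more over 100 bases or more. For *mt-Co1*, the copies *Gm13340* (chromosome 2) and *Gm29216* (chromosome 1) held 18898 and 23303 UMIs, or 4.36 copy UMIs per UMI of the gene. The *mt-Co2* copies *Gm13341* (chromosome 2) and *Gm28661* (chromosome 1) held 5424 and 10975, the *mt-Co3* copy *Gm28437* (chromosome 1) held 17049, and the *mt-Atp6* copies *Gm10925* (chromosome 1) and *Gm43743* (chromosome 3) held 11007 and 1. *mt-Cytb* differed from these in that its copy *Gm11410* (chromosome 4) held 10 UMIs against 23127 of the gene. No copy by this definition was found for *mt-Atp8* or either rRNA.

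The 3′ ends show how alike the copies are. *Gm28661* equals the last 100 bases of *mt-Co2* as far as it extends, and *Gm13341* differs from them at 3 positions, none of which is in the last 30. *Gm11410* differs from the last 100 bases of *mt-Cytb* at 6 positions, of which 2 are in the last 30. The ends of both *mt-Co2* copies (chr1:24614885-24615565 and chr2:22587291-22587962, both − strand) and of the *mt-Cytb* copy (chr4:80003989-80005131, + strand) are shown on GRCm38 in the orientation of the mitochondrial gene, with bases that differ from it in capitals.
Gm28661: ttcgaaaactgatctgcttcaataatt
Gm13341: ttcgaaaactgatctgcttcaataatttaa
Gm11410: tTgaagacaaaataTtaaaattatatcca
The copies of *mt-Co2* had edgeR log2 fold changes of −0.91 for *Gm28661* (standard error 0.28, adjusted p = 0.471, against 0.0444 with DESeq2, which called it) and −1.52 for *Gm13341* (standard error 0.31, adjusted p = 0.0218). The latter was 1 of the 7 genes called in the whole table, and it was called neither by limma-trend (adjusted p = 0.0697) nor when any library except Atf3 high replicate 3 or Atf3 low replicate 2 was left out. In the whole table, 0 genes were called without Atf3 low replicate 1, and 1 gene when Atf3 low replicate 3 or either of Atf3 high replicates 1 and 2 was left out. Its estimate ran from −1.77 to −1.30 over single libraries left out and was −1.54 without Atf3 high replicate 2. The large copies of the other mRNAs had estimates from −0.40 (*Gm13340*) to −0.19 (*Gm10925*), none of which passed an adjusted p of 0.05, and with library size alone they ran from −0.19 (*Gm13340*) to 0.026 (*Gm10925*). Leaving out 1 library gave from −0.76 (Atf3 high replicate 2) to −0.21 (Atf3 high replicate 3) for *Gm29216*, from −0.73 (Atf3 high replicate 2) to −0.26 (Atf3 high replicate 1) for *Gm13340*, from −0.46 (Atf3 high replicate 2) to −0.16 (Atf3 low replicate 3) for *Gm28437* and from −0.42 (Atf3 low replicate 2) to −0.013 (Atf3 low replicate 1) for *Gm10925*.

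When each gene was summed with its copies, the estimates stayed below 0 for all 5 mRNAs. *mt-Co2* with its copies stood at 20447, 20915 and 23378 CPM in Atf3 high against 48754, 36465 and 41348 CPM in Atf3 low (replicates 1, 2 and 3). The groups lay far apart, with a log2 fold change of −0.97 (standard error 0.27, edgeR adjusted p = 0.398). *mt-Co1* and *mt-Co3*, which did not overlap in CPM when counted alone, overlapped with their copies, through Atf3 high replicate 2. *mt-Co1* with copies stood at 48718, 78700 and 46850 CPM in Atf3 high against 75526, 66506 and 89029 CPM in Atf3 low, and *mt-Co3* with its copy at 28221, 37618 and 29969 against 41011, 33545 and 47272 CPM. The summed values were −0.62 for *mt-Cytb*, −0.41 for *mt-Co1*, −0.35 for *mt-Co3* and −0.34 for *mt-Atp6*, the last being less than the −0.68 of *mt-Atp6* alone. They were, without Atf3 high replicate 2, −0.95 for *mt-Co2*, −0.75 for *mt-Cytb*, −0.70 for *mt-Co1*, −0.49 for *mt-Co3* and −0.36 for *mt-Atp6*, whose value was −0.097 without Atf3 low replicate 1 and −0.58 without Atf3 low replicate 2. *mt-Atp6* took a smaller share of its family in Atf3 high (26.6%, 24.0% and 30.6%) than in Atf3 low (35.9%, 32.5% and 33.4%), without overlap. *mt-Co2* went the other way, with 42.2%, 34.3% and 39.0% of its family in Atf3 high against 31.6%, 35.3% and 30.9% in Atf3 low, with overlap. The mRNA to rRNA ratio with copies was 3.47, 2.91 and 4.15 in Atf3 high against 5.29, 3.04 and 4.23 in Atf3 low, a log2 difference of −0.23 that was −0.11 without Atf3 high replicate 2, −0.047 without Atf3 low replicate 1, −0.45 without Atf3 low replicate 2 and −0.36 without Atf3 high replicate 3. With *mt-Cytb* alone as numerator, chosen after the copies had been counted, there were 0.543, 0.436 and 0.657 UMIs per rRNA UMI in Atf3 high against 0.789, 0.520 and 0.754 in Atf3 low, a log2 difference of −0.33 with overlapping groups (−0.18 without Atf3 high replicate 2, −0.22 without Atf3 low replicate 1 and −0.52 without Atf3 low replicate 2).

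Subunits encoded in the nucleus join the mitochondrially encoded ones in each complex, and lists of them were read from the same edgeR test. Of the nuclear complex III subunits, 5 of 8 tested had estimates below 0 and 3 above, with a median log2 fold change of −0.19 and 0 past an unadjusted p of 0.05. The median was 0.011 with library size alone, −0.019 with no filter on low counts, −0.056 without Atf3 high replicate 1, −0.098 without Atf3 low replicate 1 and −0.41 without Atf3 high replicate 3. The smallest p belonged to *Uqcrfs1*, the Rieske iron-sulfur protein (−0.47, standard error 0.34), followed by *Uqcrq* (−0.35, standard error 0.33) and *Uqcrb* (−0.42, standard error 0.39). Of the nuclear complex IV subunits, 10 of 13 had estimates below 0, with a median of −0.29 (−0.091 with library size alone, −0.17 without Atf3 low replicate 3 and −0.51 without Atf3 high replicate 3) and again 0 past an unadjusted p of 0.05. *Cox7a1*, the heart and muscle isoform of subunit 7a, was the first by p, with 830 ± 185 CPM in Atf3 high against 1265 ± 98.4 CPM in Atf3 low and no overlap in CPM, but with overlap as a share of all UMIs (−0.60, standard error 0.36), ahead of *Cox7b* (−0.53, standard error 0.36) and *Cox8b* (−0.48, standard error 0.35). Of the complex V subunits, 15 of 17 had estimates below 0, with a median of −0.36 (−0.14 with library size alone, −0.58 without Atf3 low replicate 2), and 1 of them, *Atp5a1*, the α subunit of the catalytic head, was lower at an unadjusted p under 0.05 (−0.68, standard error 0.33), against 2.24% of all genes. *Atp5a1* did not pass that threshold with library size alone, with no filter on low counts or when any library except Atf3 high replicate 3 or Atf3 low replicate 2 was left out. *Atp5g3*, a c subunit of the rotor, was at −0.60 (standard error 0.32) and *Atp5h* at −0.61 (standard error 0.37). None of these list members passed an adjusted p of 0.05 in edgeR. Without Atf3 high replicate 2, the medians were −0.15 for complex III, −0.26 for complex IV and −0.31 for complex V.

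Assembly factors help build complexes III to V, and a further list held the genes that maintain mitochondrial DNA and make and process its RNA. Of the 20 assembly factors tested, 12 had estimates below 0 and 8 above, with a median log2 fold change of −0.21 that turned to 0.40 without Atf3 low replicate 2. It was −0.028 with library size alone, −0.0098 without Atf3 high replicate 1, −0.35 without Atf3 low replicate 1 and −0.48 without Atf3 high replicate 3. The smallest p were for *Oxa1l*, which inserts proteins into the inner membrane (−1.23, standard error 0.75), *Ttc19*, a complex III factor (−1.07, standard error 0.68), and *Cox15*, which makes heme a for complex IV (1.84, standard error 1.18, with 20 of its 27 UMIs in Atf3 high replicate 1). Of 24 tested genes for mitochondrial DNA, transcription and RNA processing, 16 had estimates above 0 and 8 below, with a median of 0.39, and 2 were higher at an unadjusted p under 0.05, against 3.55% of all genes higher at that threshold. The count was 1 when any library other than Atf3 high replicate 2 was left out, 0 with DESeq2, 1 with the replicates as blocks, and 3 with library size alone or limma-trend. With no filter on low counts it was 4 of 40 genes tested. These 2 were *Polg*, the DNA polymerase (2.40, standard error 1.09), and *Polrmt*, the RNA polymerase that transcribes mitochondrial DNA (2.19, standard error 1.05). *Polrmt* had 13, 2 and 15 UMIs in Atf3 high against 1, 3 and 0 in Atf3 low. *Polg* had 7, 3 and 17 UMIs in Atf3 high against 1 in each Atf3 low library. *Ptcd2*, a protein with pentatricopeptide repeats that takes part in mitochondrial RNA processing, had 25, 19 and 26 UMIs in Atf3 high against 11, 6 and 6 in Atf3 low (1.18, standard error 0.59). The summed level of the 40 listed genes in the table was 1296, 1303 and 1579 CPM in Atf3 high against 1247, 1110 and 967 CPM in Atf3 low, without overlap, and none of the genes passed an adjusted p of 0.05 in edgeR. Without Atf3 high replicate 2, the medians were −0.24 for the assembly factors and 0.24 for this list, whose median was 0.15 without Atf3 low replicate 3 and 0.59 with library size alone.

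With all libraries included, only the marker sum of the cardiomyocytes separated the groups in CPM, and as shares of all UMIs no cell type's sum did. Without Atf3 high replicate 2, the sum of the mural cell markers, given below, also separated them on both scales. Of the 11 cardiomyocyte markers analysed here, each of which had UMIs, 11 had estimates below 0, with a median log2 fold change of −0.58, and 5 were lower at an unadjusted p under 0.05, against 2.24% of all genes. The count was 2 with library size alone, with no filter on low counts and when Atf3 low replicate 3 or either of Atf3 high replicates 1 and 2 was left out, and 8 without Atf3 high replicate 3. The median ran from −1.08 (Atf3 high replicate 3 left out) to −0.39 (Atf3 high replicate 1 left out), and was −0.52 without Atf3 high replicate 2. Their summed level was 26534, 26937 and 50031 CPM in Atf3 high against 51604, 55435 and 67102 CPM in Atf3 low (replicates 1, 2 and 3), without overlap; as a share of all UMIs, Atf3 high replicate 3 (5.10%) lay above Atf3 low replicate 1 (4.46%), and *Myl2* was the most abundant. One of them, *Myh6*, named after its values had been seen, passed an adjusted p of 0.05 (−1.81, standard error 0.32, edgeR adjusted p = 0.00512), and 0 of the markers did when any library except Atf3 high replicate 3 or Atf3 low replicate 2 was left out. The summed levels were also read relative to these markers, a scale chosen after their sums had been seen. There were 2.07, 2.28 and 1.18 mRNA UMIs per cardiomyocyte marker UMI in Atf3 high against 1.82, 1.36 and 1.40 in Atf3 low, a log2 difference of 0.22 with overlapping groups. It was 0.041 without Atf3 high replicate 2, 0.11 without Atf3 high replicate 1, 0.15 without Atf3 low replicate 2, 0.36 without Atf3 low replicate 1 and 0.52 without Atf3 high replicate 3. For the rRNAs there were 1.45, 2.32 and 0.681 in Atf3 high against 0.835, 1.09 and 0.849 in Atf3 low, a log2 difference of 0.52, also with overlap, which was 0.11 without Atf3 high replicate 2 and 1.00 without Atf3 high replicate 3.

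Of the fibroblast markers, 7 of 7 had estimates above 0 (median 0.97, 2 at an unadjusted p under 0.05), against 4233 of the 7665 genes above 0 and 3.55% higher at that threshold. Their summed level was 4705, 2486 and 983 CPM in Atf3 high against 2493, 1351 and 463 CPM in Atf3 low. On leaving out Atf3 high replicate 1, 3 of 6 were above 0 (median −0.062, 0 at that threshold), without Atf3 low replicate 3 the median was 0.56 (0 at that threshold), without Atf3 low replicate 1 it was 1.63, and without Atf3 high replicate 2 it was 1.13 (1 at that threshold). The groups overlapped, and *Col3a1* was the most abundant marker. The mural cell markers were above 0 in 6 of 6 (median 0.80; 0.34 without Atf3 low replicate 3, 0.42 without Atf3 high replicate 1 and 1.06 without Atf3 high replicate 2), led by *Rgs5*, with 711, 253 and 689 CPM in Atf3 high against 559, 342 and 136 CPM in Atf3 low. Endothelial markers, led by *Fabp4*, were above 0 in 4 of 7, with 1438, 1026 and 1258 CPM in Atf3 high against 1496, 1201 and 885 CPM in Atf3 low. Both of these sums overlapped between the groups. Without Atf3 high replicate 2, however, the mural sum in Atf3 high lay above all Atf3 low libraries in CPM. The same held for its shares of all UMIs (0.0757% and 0.0703% against at most 0.0484%). The macrophage markers, led by *Lyz2*, were above 0 in 3 of 7, with sums from 172 to 361 CPM over the 6 libraries. Erythrocyte markers, led by *Hbb-bs*, summed to at most 157 CPM in any library, and only *Hbb-bs* was tested. *Mb*, *Hba-a1*, *Hbb-bt* and *Alas2* were not analysed here. The part of these markers in the levels of the mitochondrial RNAs was not tested.

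Among 1217 nuclear genes with a mean of at least 100 CPM and no sequence copied from mitochondrial DNA, the log2(CPM + 4) of *Septin7* (Pearson r = 0.98), *Acot13* (0.98) and *Sec13* (0.96) was most like the summed mRNA level over the 6 libraries. *Acot13*, a mitochondrial thioesterase, stood at 396, 398 and 396 CPM in Atf3 high against 741, 534 and 640 CPM in Atf3 low. It thus shared the narrow band of the Atf3 high libraries and the low value of Atf3 low replicate 2 within its group. Most like the summed rRNA level were *Clpb*, a mitochondrial chaperone (0.95), *Rpl37a*, a protein of the cytosolic ribosome (0.95), and *Napa*, a vesicle fusion factor (0.94). *Rpl37a* stood at 152, 398 and 126 CPM in Atf3 high against 135, 325 and 259 CPM in Atf3 low, with Atf3 high replicate 2 the highest, as for *mt-Rnr2*. These 6 are the closest of many genes over few libraries, which share their depth, and are given as a description.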

How the data were processed

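RNA of 3 Atf3 high and 3 Atf3 low areas was made into CEL-seq2 libraries after photo-isolation chemistry. What the authors deposited is a table of raw UMI counts with a column for each library, in which not every gene has a row, made from reads mapped to GRCm38 with HISAT2 (version 2.1.0). The submitters' processing notes also name UMI-tools (version 1.0.0) and featureCounts (version 1.6.4). The annotation release and the treatment of reads that map to several places are not given in the sources used here, and they bear on every gene with a nuclear copy.

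The labels gave the groups. Genes with at least 10 UMIs in total were normalized by TMM and tested with edgeR's quasi-likelihood test (edgeR version 4.0.16, R version 4.3.3), 2-sided and without a covariate, and DESeq2 (version 1.42.0) and limma-trend on log2(CPM + 4) (limma version 3.58.1) were alternatives, as were other normalizations and filters, summing with copies, a replicate block and leaving out each library. On simulated data the edgeR test called few of the genes that had been changed. The simulation gave all genes the common spread and changed genes with few UMIs too, so it does not measure the power for the genes followed here. A gene that was not called may still differ. The common biological coefficient of variation was 53.6%. Ratios and summed levels were not tested. Copies were found with BLAST+ (version 2.17.0) among GENCODE transcripts of GRCm38, which also gave the positions and sequences. Libraries of a group differed by more than sampling noise (ratio of chi-square to its degrees of freedom between 3.55 and 5.07) and were not merged. Intervals are exact 95% binomial intervals.

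Named genes are the 8 genes, the 3 of smallest p in each list of nuclear partners, the most abundant marker of each cell type and the only one called (*Myh6*), the copies, the most abundant other mitochondrial rows and the 3 genes most correlated with each summed level. The genes and lists were chosen with earlier results of these data known. The single-nucleus and human data of the study were not used here.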

Additional observations from a re-analysis of the deposited data

How the results depend on the processing

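Over 15 alternatives, 0 of the 7 tested genes passed an adjusted p of 0.05 in edgeR, DESeq2 or limma-trend (lowest adjusted p 0.300, for *mt-Co2* with DESeq2), and all 75 estimates of the 5 mRNAs were below 0. The number of genes lower at an unadjusted p under 0.05, 3 in the reported test, was 0 with library size alone, 1 with no filter on low counts, and from 1 (with either Atf3 high replicate 1 or Atf3 low replicate 3 left out) to 5 (Atf3 low replicate 2 left out) over single libraries. The estimate of *mt-Rnr1* (−0.057) turned to 0.13 with library size alone, 0.012 with the replicate block and 0.011 with limma-trend, and ran from −0.30 to 0.25 when a library was left out. The difference in summed mRNA level (−0.58) was −0.38 with library size alone, 0.22 per cardiomyocyte marker UMI (0.041, 0.11, 0.15, 0.17, 0.36 and 0.52 without 1 library) and from −0.74 to −0.54 without 1 library; that of the rRNA level (−0.29) was −0.078 with library size alone, 0.52 per marker UMI (0.11, 0.45, 0.46, 0.47, 0.65 and 1.00) and from −0.56 to −0.12 without 1 library. The difference in log2 mRNA to rRNA ratio was below 0 under all 12 alternatives (−0.59 to −0.073). The complex III median (−0.19) was 0.011 with library size alone, −0.019 with no filter and from −0.41 to −0.056 without 1 library, that of complex IV (−0.29) was −0.091 and from −0.51 to −0.17, and that of complex V (−0.36) was −0.14 with library size alone and from −0.58 to −0.30 without 1 library, and that of the assembly factors (−0.21) was −0.028 with library size alone, −0.14 with no filter, −0.11 with the stricter filter of edgeR and ran from −0.48 to 0.40 without 1 library. The median of the genes for mitochondrial DNA, transcription and RNA processing (0.39) was 0.59 with library size alone, 0.55 with no filter, 0.68 with limma-trend and from 0.15 to 0.48 without 1 library. The causes were not tested. Replicate numbers did not clearly pair the libraries: deviations from the group means of Atf3 high and Atf3 low libraries of the same number correlated at 0.085, 0.00088 and 0.066 (replicates 1, 2 and 3). Atf3 high replicates 1 and 3 correlated best with the Atf3 low library of their own number. With the other numbers they correlated at −0.021 and −0.056 (replicate 1) and at −0.095 and 0.019 (replicate 3). Atf3 high replicate 2 correlated best with a library of another number. It also differed in sex-linked UMIs from Atf3 low replicate 2 (*Xist* 0 against 13, *Ddx3y* 8 against 0, *Eif2s3y* 8 against 0), and the replicate block treats these libraries as a pair. The replicate block, which left 0 of the 7 genes called and raised the number called over all genes from 7 to 24 (cardiomyocyte markers from 1 to 2, fibroblast markers from 0 to 2, complex I mRNAs of mitochondrial DNA from 0 to 1), left the differences in summed levels (−0.58 and −0.29) and ratio (−0.30) as they were by construction. Between 550 and 5314 UMIs stood behind each rRNA value and between 341 and 5045 behind each tested mRNA value, so the spread between libraries limits these comparisons more than counting error does.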
